A study of Homo sapiens with 9 samples.

Results

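The genes described here are the erasers and readers of N6-methyladenosine (m6A), followed through the H3K4me3 mark at their promoters in HEL cells. They were taken from a fixed list of 10 symbols, FTO, ALKBH5, YTHDF1, YTHDF2, YTHDF3, YTHDC1, YTHDC2, IGF2BP1, IGF2BP2 and IGF2BP3, out of 20162 protein-coding genes annotated on hg19. All 10 were found. m6A is a methyl group on adenosine within mRNA that is placed by a writer complex built around METTL3, METTL14 and WTAP, removed by the demethylases FTO and ALKBH5, and bound by reader proteins. The YTH domain readers hold the methylated base directly and act on translation, decay, splicing and export, whereas the IGF2BP readers are RNA-binding proteins known for stabilising the transcripts they bind. H3K4me3 is a histone mark found at the starts of active and poised genes, so the values below describe promoters, not mRNA or protein.

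HEL is a human erythroleukemia cell line that carries erythroid and megakaryocytic features. H3K4me3 was mapped by CUT&RUN, in which an antibody guides micrococcal nuclease to cut out the marked DNA, in 9 libraries of 4 groups. The NTC group (n = 3) received a non-targeting control guide, and the METTL3-KO, METTL14-KO and WTAP-KO groups (n = 2 each) received CRISPR guides against 1 writer subunit. All groups were therefore HEL cells made by CRISPR, controls included. Which guides were used for these libraries, and whether cells were clones or pools, is not given in the sources used here. Nothing states that libraries of a group came from separate cultures, so p-values measure the spread between these libraries, which may be technical. An H3K4me3 peak does not report on a guide's cut, so it does not check the labels. The METTL3-KO libraries had peaks of 1094.9 and 915.2 at the METTL3 promoter, 964.5 and 349.2 at METTL14, and 5106.4 and 468.8 at WTAP. In METTL14-KO the METTL14 promoter had none, while replicate 1 had 399.5 at METTL3 and 213.0 at WTAP. The WTAP-KO libraries had none at WTAP, METTL3 or METTL14. In NTC the METTL3 promoter gave 6514.9 to 10067.4. The peaks thus did not follow the targeted gene.

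The unit is the signal that the authors gave each peak, scaled to yeast DNA spiked into each sample. A gene's value in a library is the largest signal among peaks within 1 kb of any of its annotated transcript starts, and a gene with no listed peak there is given as having none. A missing peak means only that no peak is listed there, and not that the mark was absent or weak. The lowest listed signal was between 30.1 and 32.0 in each library. The widest listed peak was 2000 bp, and whether a wider marked region was left out of a list was not tested. A lower signal from fewer marked cells and from less mark per cell cannot be told apart.

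The libraries differed in total. NTC lists held 21724 to 21941 peaks, METTL3-KO lists 9205 and 9369, METTL14-KO lists 3169 and 5286, and WTAP-KO lists 3160 and 3673. The smallest step between signal values also moved with the groups, at 1.14 to 1.32 in NTC, 0.461 and 1.07 in METTL3-KO, and 0.320 to 0.440 across the libraries of the remaining KO groups, and its part in the results was not tested beyond dividing the values by it. Of the cell identity markers, the erythroid genes GATA1, KLF1, TAL1 and EPOR (4 of 8) and the megakaryocytic gene GP9 had a peak in all NTC libraries, while ALAS2 and PF4 had none in any library. Of the lymphoid markers, PAX5 carried NTC peaks of 1084 to 1323, CD3E and CD79A had none, and none of the 2 hepatocyte and 2 neuronal markers was marked.

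In the NTC cells, 6, 6 and 8 of the 10 eraser and reader genes had a promoter peak, a mean of 6.67 ± 1.15 (SD, n = 3). The METTL3-KO libraries marked 7 and 6 of them (6.5 ± 0.71, n = 2), METTL14-KO libraries 4 and 3 (3.5 ± 0.71, n = 2), and WTAP-KO libraries 3 and 4 (3.5 ± 0.71, n = 2). Over all protein-coding genes, the mean share marked was 47.4% in NTC, and after METTL3-KO it was 34.0%, after METTL14-KO 17.2% and after WTAP-KO 12.2%. The number of eraser and reader genes marked was thus similar in NTC and METTL3-KO while the share of all genes was lower, but a count over 10 genes moves by 10 percentage points with each gene.

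**Figure D1:**
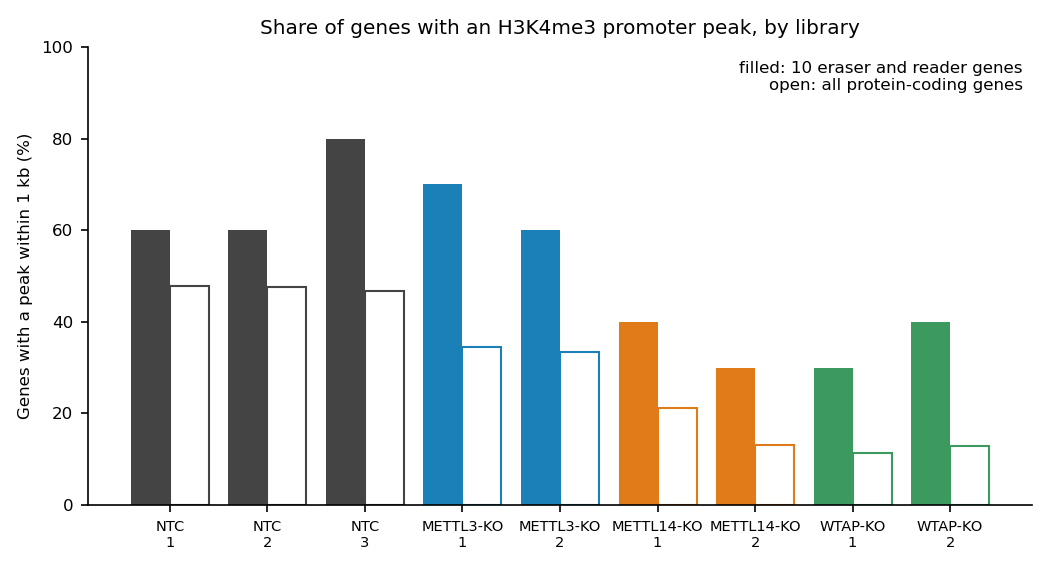
Share of genes with an H3K4me3 peak within 1 kb of a start, in percent, for each library. Filled bars give the 10 eraser and reader genes and open bars all protein-coding genes, coloured by group; the filled bars are lowest, at 3 or 4 of 10 genes, in the METTL14-KO and WTAP-KO libraries.

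All 10 genes had a peak in at least 2 libraries and entered the test across 12037 genes. Against NTC, taking the 3 KO groups together, 5 of the 10 were lower (FTO, YTHDF1, YTHDC1, YTHDC2 and IGF2BP3), where 73.0% of all genes tested were lower. A further 3 were higher (YTHDF2, IGF2BP1 and IGF2BP2), where 14.3% of all genes were, and ALKBH5 and YTHDF3 did not pass (limma, adjusted p under 0.05). The median difference on the log2 scale was -3.11 over the 10 genes and -5.30 over all genes tested. These differences use log2(signal + 30.105), so that a difference against a group with no peak has a size set by the added constant, and no fold is given for it. Libraries with no peak get the same value, so a group without peaks adds no spread. For FTO, YTHDF1 and YTHDC2, with no KO peak, SE and p-value rest on the NTC spread and the variance limma shares across genes. The comparisons of single KO groups with NTC share the same NTC libraries.

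**Figure D2:**
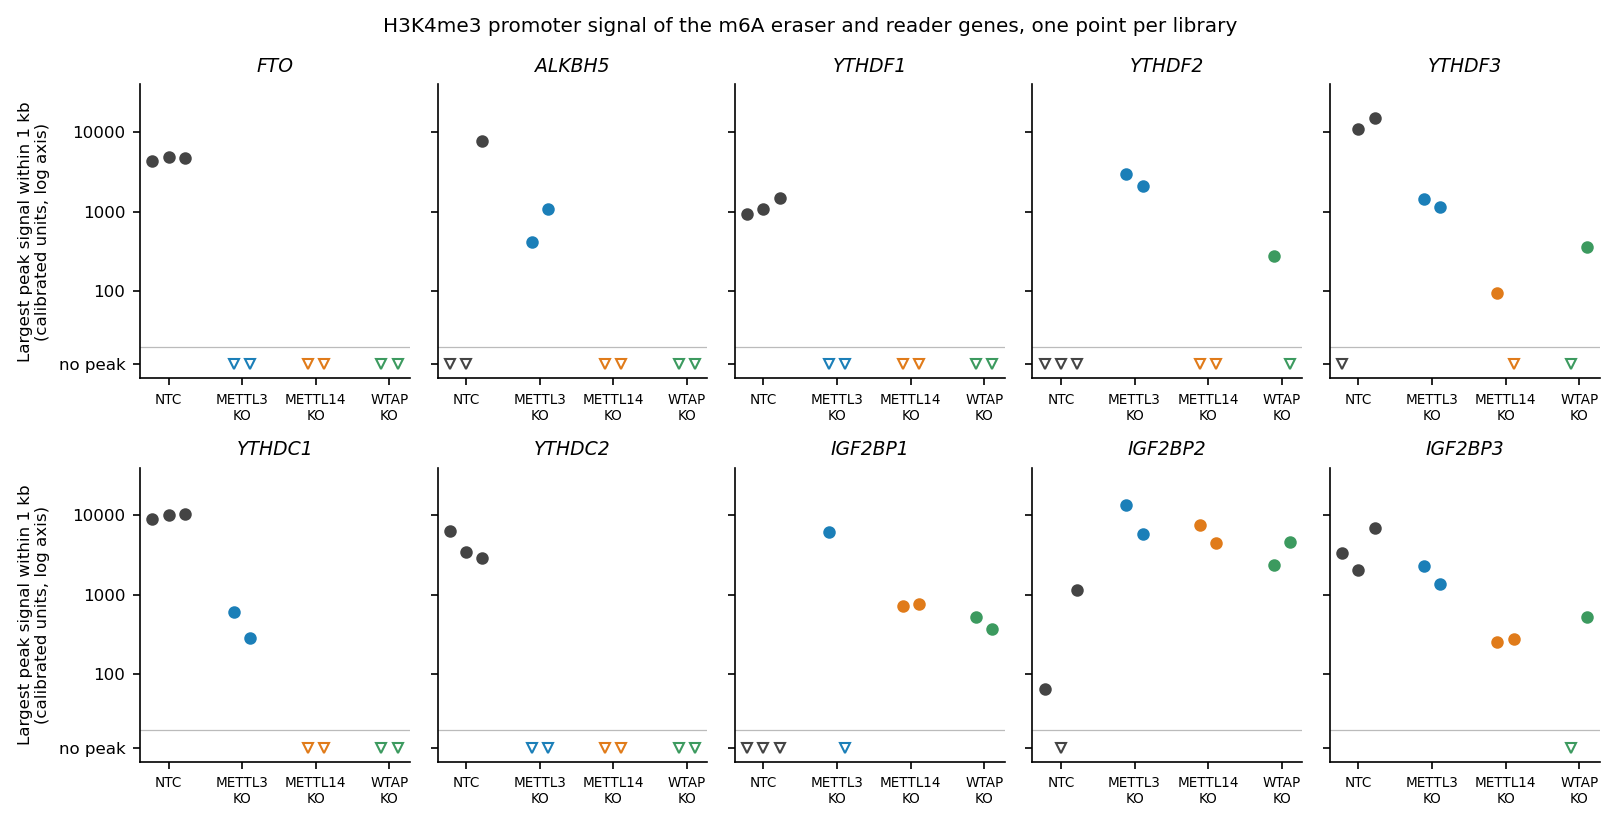
Largest H3K4me3 peak signal within 1 kb of a start, on a log axis in calibrated units, for each of the 10 genes. Each filled point is 1 library and each open triangle a library with no peak; FTO, YTHDF1 and YTHDC2 have points in the NTC libraries only, and every KO point of IGF2BP2 lies above every NTC point.

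The upstream sequences of 5 of the genes are given so that the peaks below can be read against them. Each is the 250 bases before the canonical start in GRCh37 (hg19), 5′ to 3′ on the gene's strand, with every copy of the GC box GGGCGG or its complement CCGCCC in capitals. YTHDF1, YTHDC1 and YTHDC2 lost their peaks in most or all KO libraries, and IGF2BP2 and IGF2BP3 had KO peaks inside the gene.
YTHDF1, chr20:61847484-61847733, minus strand: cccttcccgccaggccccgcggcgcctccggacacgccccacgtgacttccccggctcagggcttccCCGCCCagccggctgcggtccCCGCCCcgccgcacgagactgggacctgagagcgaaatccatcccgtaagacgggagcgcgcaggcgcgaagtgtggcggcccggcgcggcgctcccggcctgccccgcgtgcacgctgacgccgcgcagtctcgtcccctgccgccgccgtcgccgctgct
YTHDC1, chr4:69215809-69216058, minus strand: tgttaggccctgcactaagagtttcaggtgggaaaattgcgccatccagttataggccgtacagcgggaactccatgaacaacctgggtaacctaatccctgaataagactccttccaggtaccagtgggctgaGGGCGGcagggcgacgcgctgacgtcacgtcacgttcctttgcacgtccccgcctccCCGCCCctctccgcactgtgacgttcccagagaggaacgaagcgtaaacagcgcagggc
YTHDC2, chr5:112849141-112849390, plus strand: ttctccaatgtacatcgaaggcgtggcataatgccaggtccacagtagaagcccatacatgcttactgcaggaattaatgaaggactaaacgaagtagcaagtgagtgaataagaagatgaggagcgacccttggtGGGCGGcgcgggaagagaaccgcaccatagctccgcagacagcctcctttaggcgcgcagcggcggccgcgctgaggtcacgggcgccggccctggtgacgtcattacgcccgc
IGF2BP2, chr3:185542831-185543080, minus strand: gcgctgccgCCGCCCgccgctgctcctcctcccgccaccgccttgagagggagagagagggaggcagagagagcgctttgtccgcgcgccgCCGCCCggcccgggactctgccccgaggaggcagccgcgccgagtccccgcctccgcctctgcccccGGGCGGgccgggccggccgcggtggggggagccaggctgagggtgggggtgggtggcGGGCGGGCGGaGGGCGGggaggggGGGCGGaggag
IGF2BP3, chr7:23510111-23510360, minus strand: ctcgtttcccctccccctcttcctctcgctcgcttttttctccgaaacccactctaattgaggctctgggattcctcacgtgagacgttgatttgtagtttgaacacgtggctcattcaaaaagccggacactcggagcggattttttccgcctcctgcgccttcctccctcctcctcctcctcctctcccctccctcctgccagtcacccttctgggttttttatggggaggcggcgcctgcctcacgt

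These windows ranged from 56.8% GC in IGF2BP3 to 81.6% in IGF2BP2, against a median of 63.2% over 19881 protein-coding promoters of the same length. The GC box occurred 7 times in IGF2BP2 with overlapping copies counted, 4 times in YTHDF2, 2 times each in YTHDF1, YTHDC1 and IGF2BP1, once in ALKBH5 and YTHDC2, and not at all in FTO, YTHDF3 and IGF2BP3. Of all promoters 59.1% held at least 1. The CCAAT motif, read on both strands, was found in YTHDF2 and YTHDC2 and in 34.2% of all promoters, and TATAAA was in none of the 10 and in 9.26% of all. A match is a description of letters and not of binding.

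**Figure D3:**
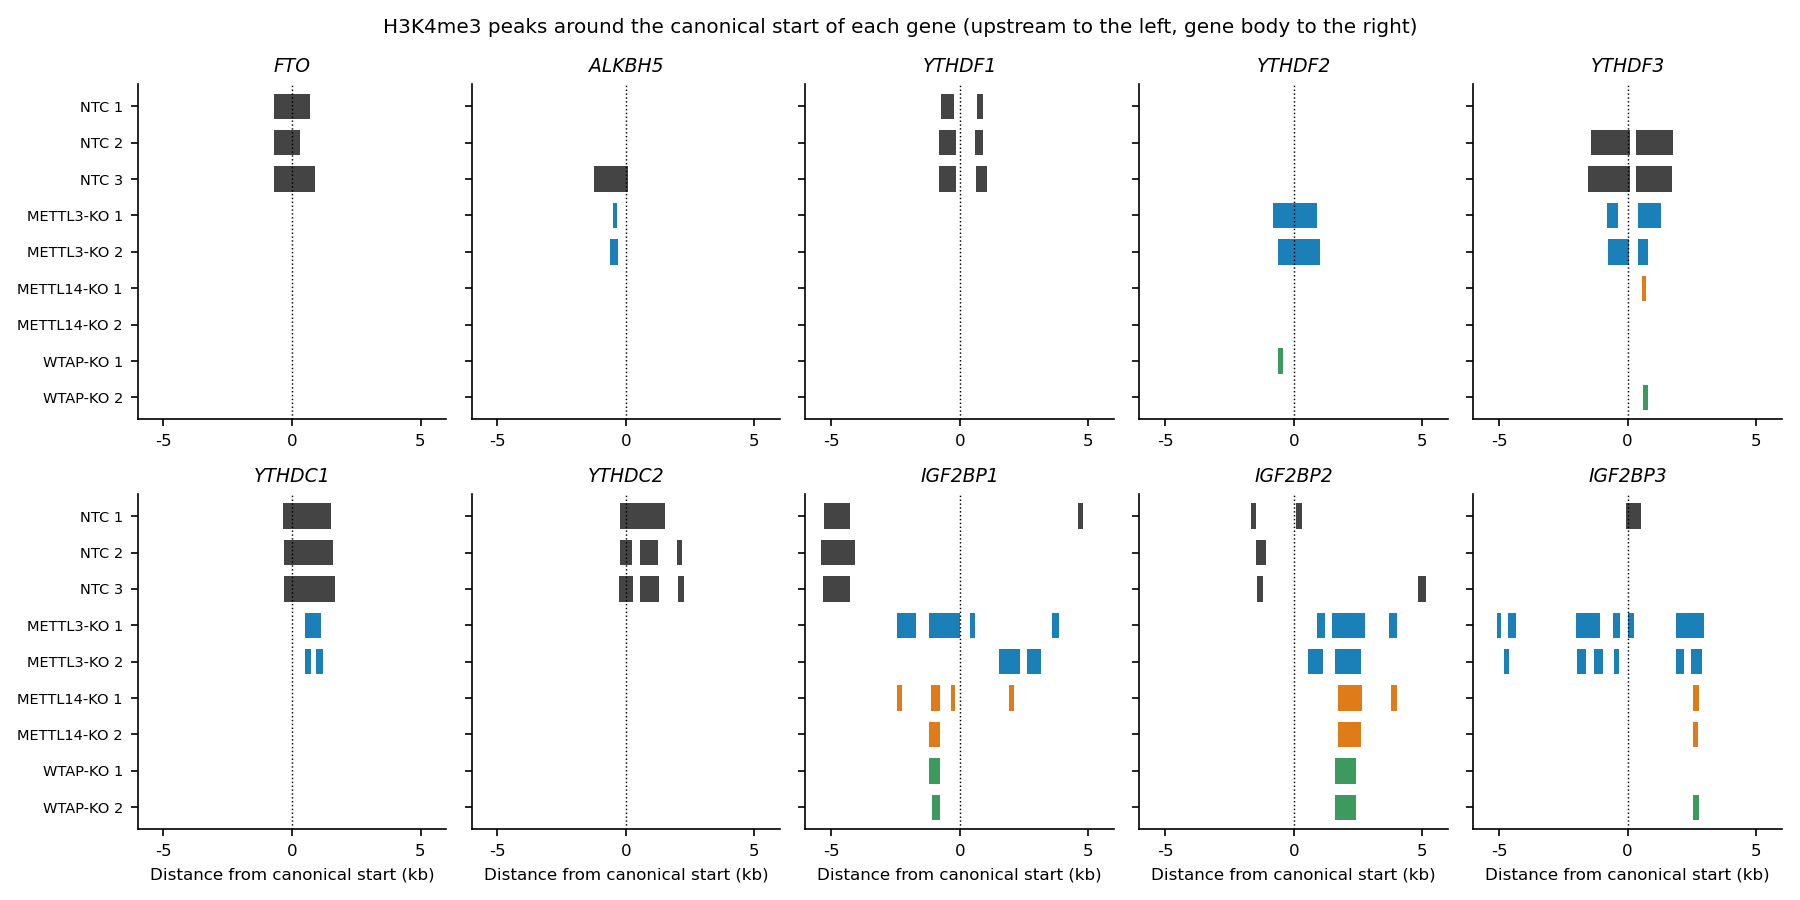
Position of the listed peaks near the canonical start of each gene, in kb, with upstream to the left and a row for each library. Only peaks within 5 kb of a start are drawn, and peaks past the edges are left out. Among those left out are the NTC peaks of IGF2BP3 that lie 38585 to 40026 bp inside the gene. Bars are drawn to scale and coloured by group. The KO peaks of IGF2BP2 lie inside the gene where no NTC library has a peak. The strongest NTC peaks of IGF2BP1 lie near the left edge, and a weaker peak of NTC replicate 1 (508.0) lies toward the right.

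Of the erasers, FTO lost its promoter peak in every KO library, whereas ALKBH5 gave no settled difference. FTO (ENSG00000140718, chr16:53735604-54192424, plus strand) encodes an oxygenase that removes the methyl group from m6A and from the methylated adenosine beside the mRNA cap. Its NTC signals were 4313.0, 4868.2 and 4793.3 (4658 ± 301, SD, n = 3), and none of the 6 KO libraries listed a peak within 1 or 5 kb. The groups did not overlap, and the difference from NTC passed in each KO group and over all of them (-7.28 ± 0.09, SE, on the log2 scale, adjusted p = 1.26e-08, limma). The NTC peaks were 1030 to 1613 bp wide, began at positions -709 to -702 relative to the canonical start and also covered the start of RPGRIP1L, which runs the other way from position 53737722, so that the mark of the 2 genes cannot be told apart.

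ALKBH5 (ENSG00000091542, chr17:18086392-18113268, plus strand) encodes the nuclear m6A demethylase. NTC replicate 3 carried a peak of 7810.0, while NTC replicates 1 and 2 had none, and the nearest listed peaks on either side of the start in those libraries left gaps of 138070 and 138100 bp. The METTL3-KO libraries had short peaks of 419.6 and 1096.8, 169 and 320 bp wide, and the METTL14-KO and WTAP-KO libraries had none. The NTC libraries therefore spanned the whole range of the KO libraries. The difference over all KO groups was -1.15 ± 1.89 (SE, log2 scale, adjusted p = 0.584, limma), and without NTC replicate 3 it turned to a called increase of 1.52 (adjusted p = 0.00946, limma), with METTL3-KO alone at 4.56 (adjusted p = 3.04e-04, limma).

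Among the cytoplasmic YTH readers the paralogs went different ways. YTHDF1 (ENSG00000149658, chr20:61826781-61847491, minus strand), a reader linked to translation of methylated mRNA, gave 930.5, 1088.2 and 1501.5 in the NTC libraries and no peak in any KO library. All NTC values thus lay above all KO libraries (-5.29 ± 0.16, SE, log2 scale, adjusted p = 2.09e-07, limma). In each NTC library the mark formed 2 peaks of 234 to 661 bp on either side of the canonical start, with 715 to 875 bp between them, so that no peak covered the start itself. The YTHDF1 bases printed above run from the start, through the unmarked stretch, into the near end of the upstream peak.

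YTHDF2 (ENSG00000198492, chr1:29063133-29096287, plus strand), the reader that brings methylated mRNA to the CCR4-NOT deadenylase, showed the reverse. No NTC library listed a peak within 5 kb, and the nearest peaks around the start were 115216, 213683 and 213658 bp apart in NTC replicates 1 to 3. METTL3-KO libraries gave 2969.6 and 2136.9, in peaks of 1703 and 1637 bp across the start, which also covered the start of the lncRNA ENSG00000289291. WTAP-KO replicate 1 had a peak of 280.0 and 200 bp, and WTAP-KO replicate 2 and both METTL14-KO libraries had none.

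METTL3-KO thus stood apart from NTC at YTHDF2 (6.40 ± 0.89, SE, log2 scale, adjusted p = 6.48e-04, limma) and from the other KO groups (5.56 ± 0.84, adjusted p = 0.00355, limma). METTL14-KO and WTAP-KO did not differ detectably from NTC, at 0.00 ± 0.89 and 1.68 ± 0.89 (adjusted p = 1 and 0.126, limma). Without WTAP-KO replicate 2, which had no peak, the WTAP-KO difference was 3.36. WTAP-KO passed with centring on genes marked in all 9 libraries (5.11, adjusted p = 0.00311, limma). Centring also shifts the value given to a library with no peak, as in NTC and WTAP-KO replicate 2 here. That pass is therefore not read as more mark in WTAP-KO. The combined KO difference of 2.70 ± 0.69 came mainly from METTL3-KO. Among the 6 eraser and reader genes with a peak in both METTL3-KO libraries, YTHDF2 alone had none in any NTC library, a share to be read against 26.5% of the 6049 genes marked in both METTL3-KO libraries. That share moved with the width of the narrower METTL3-KO peak, from 14.9% of genes at 150 to 400 bp to 74.1% of 108 genes at 1600 to 2000 bp, the class of YTHDF2. The part of the width limit in the missing NTC peaks was not tested.

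YTHDF3 (ENSG00000185728, chr8:64081112-64125344, plus strand), which acts with both other YTHDF readers, had the strongest NTC peaks of the 10 genes and also a missing one. NTC replicates 2 and 3 gave 10985.1 and 15198.7, and NTC replicate 1 listed no peak for 3925159 bp around the start. METTL3-KO libraries gave 1446.8 and 1150.1, METTL14-KO replicate 1 gave 95.9, WTAP-KO replicate 2 gave 357.4, and the remaining METTL14-KO and WTAP-KO libraries had none.

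Every KO value of YTHDF3 lay below NTC replicates 2 and 3 and none below NTC replicate 1. The difference was -3.06 ± 2.21 (SE, log2 scale, adjusted p = 0.233, limma) and passed only without NTC replicate 1 (-5.97, adjusted p = 0.00473, limma) or with weak peaks left out (-5.83, adjusted p = 0.0399, limma). In 4 libraries the mark formed a pair of peaks on either side of a short unmarked stretch, and the upstream NTC peak also covered the start of the divergent lncRNA YTHDF3-DT.

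The YTHDC readers, YTHDC1 and YTHDC2, were both lower in each KO group. YTHDC1 (ENSG00000083896, chr4:69176105-69215808, minus strand) acts in splicing and export of methylated RNA. Its NTC values were close together, at 9047.1, 10207.5 and 10358.5 (9871 ± 718, SD, n = 3), in peaks of 1845 to 1981 bp that covered the canonical start and the first part of the gene. METTL3-KO libraries kept 608.9 and 285.1, in pieces of 244 to 618 bp that began 507 bp or more inside the gene, and the METTL14-KO and WTAP-KO libraries had none.

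All KO values of YTHDC1 were below all NTC values. METTL3-KO differed from NTC by -4.46 ± 0.34 on the log2 scale (SE, adjusted p = 2.88e-05, limma), and from the other KO groups by 3.90 ± 0.32 (adjusted p = 2.05e-04, limma). Over all KO groups the difference from NTC was -7.06 ± 0.27 (adjusted p = 5.15e-07, limma). The residual METTL3-KO peaks lay inside the gene, so the bases printed above for YTHDC1 were covered by peaks in the NTC libraries only.

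YTHDC2 (ENSG00000047188, chr5:112849391-112930982, plus strand) encodes a helicase with a YTH domain that is known for its role in meiosis. The NTC libraries gave 6337.2, 3438.1 and 2907.1 (4227 ± 1846, SD, n = 3), and no KO library had a peak within 5 kb. NTC replicate 1 had 1 peak of 1761 bp across the start, and NTC replicates 2 and 3 each had 2 shorter peaks there and a weak one farther inside the gene. The groups did not overlap (-7.06 ± 0.25, SE, log2 scale, adjusted p = 3.94e-07, limma).

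Of the 5 genes with a peak in all 3 NTC libraries, namely FTO, YTHDF1, YTHDC1, YTHDC2 and IGF2BP3, 3 had none in either METTL3-KO library, where 46.3% of such genes had none. In METTL14-KO 4 of the 5 had none against 73.3% of genes, and in WTAP-KO 4 of the 5 against 84.9%. FTO, YTHDF1 and YTHDC2 had none in any KO library, as did 45.8% of such genes. Every KO library lay below every NTC library at 4 of the 10 genes, against 68.3% of all genes tested. These shares are read against the background and are not a result about the erasers and readers.

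At the IGF2BP readers, the strongest peaks within 5 kb of a start lay at different places in NTC and KO libraries. IGF2BP2 (ENSG00000073792, chr3:185360918-185542830, minus strand), a reader that stabilises bound mRNA and is known from metabolic disease, had low NTC values near its starts, 64.5 and 1138.4 in replicates 1 and 3 and none in replicate 2. Farther inside the gene, over 5 kb from any start, NTC libraries had 4, 5 and 4 peaks with signals of up to 6701.8, 7349.9 and 11249.1, where the KO libraries had none, so the gene was strongly marked in NTC too, at other places. Near the starts, METTL3-KO libraries gave 13456.5 and 5896.0, METTL14-KO libraries 7585.8 and 4455.8, and WTAP-KO libraries 2386.8 and 4619.5. Every KO value was above every NTC value, which held for 5.21% of all genes tested. The mean was 6400 ± 3860 over the KO libraries (SD, n = 6) and 401 ± 639 over the NTC libraries (n = 3).

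The IGF2BP2 difference was 5.23 ± 1.16 over all KO groups (SE, log2 scale, adjusted p = 0.00498, limma), and each KO group passed by itself, METTL3-KO at 5.90 ± 1.49, METTL14-KO at 5.29 ± 1.49 and then WTAP-KO at 4.49 ± 1.49 (adjusted p = 0.0106, 0.0158 and 0.0305, limma). These single calls were less steady, since WTAP-KO lost its call without NTC replicate 1 or 2 or either WTAP-KO library (adjusted p = 0.0598 to 0.134, limma), METTL3-KO without its replicate 1 (adjusted p = 0.0631) and METTL14-KO without its replicate 1 (adjusted p = 0.0779). The strongest peak of all 6 KO libraries shared a stretch of 704 bp, chr3:185540406-185541109, in which no NTC library had a peak. It lies inside the gene and covers coding exon 2 of the canonical transcript with intron on both sides, and it includes the start of a transcript with no annotated coding sequence. Its upstream 250 bases, on the minus strand with the exon of 61 bp in capitals, are 44.4% GC and hold 13 CpG.
IGF2BP2 shared KO peak, chr3:185540860-185541109, minus strand: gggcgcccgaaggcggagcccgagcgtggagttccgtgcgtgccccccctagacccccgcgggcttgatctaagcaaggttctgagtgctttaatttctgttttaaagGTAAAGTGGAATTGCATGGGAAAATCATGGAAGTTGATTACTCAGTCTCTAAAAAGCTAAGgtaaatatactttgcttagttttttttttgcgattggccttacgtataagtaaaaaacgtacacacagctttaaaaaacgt

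Because of that position, the result depended on which starts were counted. With coding transcripts alone the all KO difference of IGF2BP2 was 0.32 (adjusted p = 0.849, limma), and with the canonical start alone 1.00 (adjusted p = 0.0644, limma). The canonical promoter itself was weakly marked. NTC libraries had peaks of 64.5, 535.0 and 564.1, 195 to 390 bp wide, upstream of it. These lay 1461, 1064 and 1189 bp from the canonical start and so outside 1 kb. The only NTC peak within 1 kb of that start was 1 of 64.5 in NTC replicate 1, 100 to 323 bp inside the gene. METTL3-KO libraries had 563.3 and 927.0 beginning 891 and 549 bp inside the gene, and METTL14-KO and WTAP-KO libraries had none within 1 kb of the canonical start. The NTC replicate 3 value of 1138.4 came from a place 4845 to 5148 bp inside the gene.

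IGF2BP1 (ENSG00000159217, chr17:47074747-47133507, plus strand), an oncofetal reader of the same family, had no NTC peak within 1 kb of a start. METTL3-KO gave 6156.2 and none, METTL14-KO 726.0 and 775.6, and WTAP-KO 525.5 and 376.6. In METTL14-KO and WTAP-KO the strongest peaks were 341 to 434 bp long and ended 754 to 758 bp before the start, a place that the METTL3-KO replicate 1 peak of 1213 bp also covered. METTL3-KO replicate 2 instead had a peak of 2802.2, at 1155 bp from the nearest start and so just outside the window. In 5 libraries these peaks also lay within 1 kb of the start of the lncRNA ENSG00000250838.

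IGF2BP1 was higher over all KO groups (4.17 ± 1.55, SE, log2 scale, adjusted p = 0.0408, limma) but passed in no single KO group, and its call was lost with any 1 NTC, METTL14-KO or WTAP-KO library left out (adjusted p = 0.071 to 0.102, limma). It kept the call without either METTL3-KO library, and with only the groups compared it passed in METTL14-KO (4.70, adjusted p = 9.73e-05, limma) and WTAP-KO (3.98, adjusted p = 1.47e-04, limma). Within 5 kb the direction turned, with a difference of -2.37 ± 0.34 (adjusted p = 5.82e-04, limma). There NTC libraries had peaks of 5854.2, 4981.7 and 7215.1 that ended 4062 to 4283 bp before the canonical start, where the KO libraries listed none within 5 kb of a start. The mark near IGF2BP1 was thus at different places in NTC and KO libraries, and neither window alone describes it.

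IGF2BP3 (ENSG00000136231, chr7:23349828-23510110, minus strand), the other oncofetal member, gave 3383.8, 2068.1 and 6974.2 in NTC. METTL3-KO gave 2306.3 and 1381.9, METTL14-KO 256.5 and 280.9, and WTAP-KO none and 520.8. METTL3-KO overlapped NTC, whereas METTL14-KO and WTAP-KO lay below it. The difference passed over all KO groups (-3.16 ± 0.95, SE, log2 scale, adjusted p = 0.0191, limma), in METTL14-KO (-3.63 ± 1.23, adjusted p = 0.0326) and in WTAP-KO (-4.84 ± 1.23, adjusted p = 0.00983), but not in METTL3-KO (-1.02 ± 1.23, adjusted p = 0.473).

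The IGF2BP3 values came from different places. The NTC values sat at an internal start, 38585 to 40026 bp inside the gene, while the KO values lay 1884 to 2975 bp inside it, over a start of a transcript with no annotated coding sequence. At the canonical start itself NTC replicate 1 had a peak of 2998.2 and the other NTC libraries had none, whereas METTL3-KO replicate 1 had a peak of 591.9 there. Counting the canonical start alone, the all KO difference was -0.68 (adjusted p = 0.695, limma). With all starts counted, the difference missed the threshold with centring on genes marked in all 9 libraries (-0.58, adjusted p = 0.551, limma). Division by the step gave -2.09 (adjusted p = 0.198, limma). It also missed with 0.1 times the constant (-3.77, adjusted p = 0.064, limma) and with weak peaks left out (-3.85, adjusted p = 0.137, limma). The exact permutation test did not call it (adjusted p = 0.0643). It missed too without NTC replicate 1 or 3 (-3.22 and -2.70, adjusted p = 0.0538 and 0.0745, limma). The METTL14-KO call was lost without either of these or either METTL14-KO library (adjusted p = 0.0703 to 0.11, limma). The strongest METTL3-KO replicate 1 peak, 3454.6, lay outside the 1 kb window, 1093 bp or more from the start on the upstream side.

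**Figure D4:**
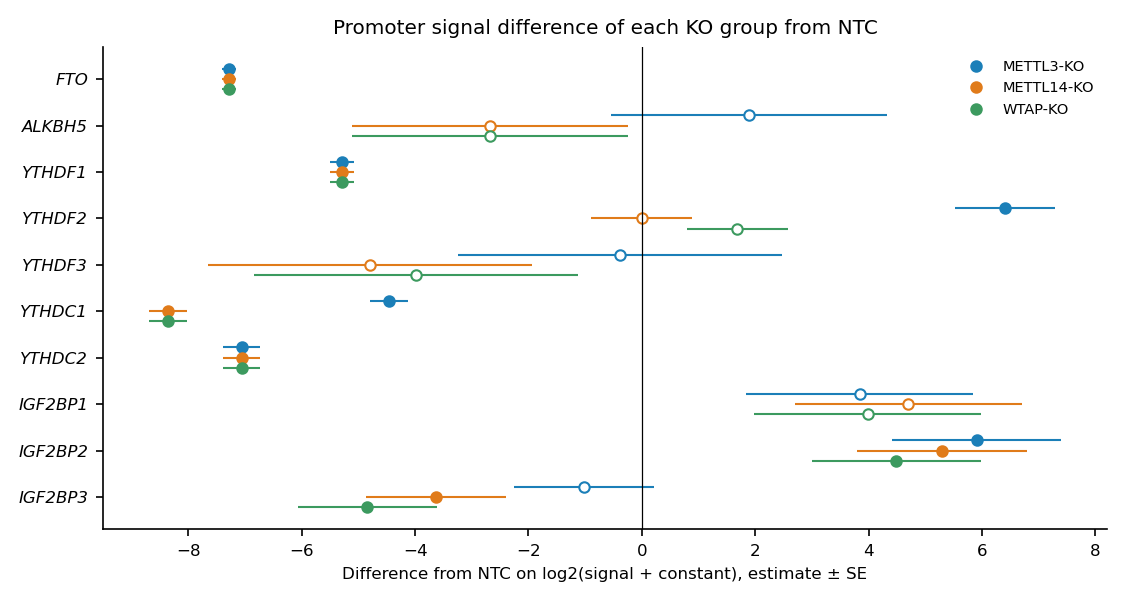
Difference of each KO group from NTC in log2(signal + 30.105), with its SE from limma, for the 10 genes. Filled points have an adjusted p under 0.05 and open points do not; FTO, YTHDF1, YTHDC1 and YTHDC2 lie below 0 in all KO groups and IGF2BP2 above it, and YTHDF2 is filled in METTL3-KO only.

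By KO group, METTL3-KO had 4 of the 10 genes lower (60.9% of all genes tested) and 2 higher (14.0%), METTL14-KO had 5 lower (68.8%) and 1 higher (8.38%), and WTAP-KO 5 lower (69.7%) and 1 higher (6.81%). The medians over the 10 genes were -0.70, -4.21 and -4.41, against -3.48, -5.57 and -5.97 over all genes tested, on the log2 scale. METTL3-KO compared directly with METTL14-KO and WTAP-KO had 2 of the 10 higher, YTHDF2 and YTHDC1, and none lower, where 29.5% of all genes were higher and 0.582% lower (limma, with 0 lower also at an unadjusted p under 0.05). Centring each library on genes marked in all 9 libraries moved the median of all genes from -5.30 to -2.71 for all KO groups. It turned the split of that direct comparison to 3776 genes lower and 2415 higher from 70 and 3552. Centring also shifts the value given to a gene with no peak, so a gene with no KO peak at all can be called lower there. Of the 8495 genes with a peak in all NTC libraries, 3893 had none in any KO library, so the turned split does not show less mark in METTL3-KO.

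Within 5 kb, 6 of the 10 genes were lower over all KO groups (76.3% of 12819 genes) and 2 higher (11.0%), the change being that of IGF2BP1. At the canonical start alone 4 were lower (70.9% of 11290 genes) and 2 higher (16.2%), with IGF2BP2 and IGF2BP3 no longer passing. FTO, YTHDF1, YTHDC1 and YTHDC2 were lower and YTHDF2 higher under all 3 definitions of the promoter. Their values were the same in every library under each definition, so this agreement is no separate check. An exact permutation test over the libraries, whose smallest possible two-sided p is 0.0238 (adjusted p = 0.0324), called FTO, YTHDF1, YTHDC1 and YTHDC2 lower and IGF2BP2 higher. It did not call YTHDF2 over all KO groups (adjusted p = 0.52, exact permutation test).

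Other genes of the m6A system are read against the same background, 73.0% of genes lower and 14.3% higher over all KO groups. Of 12 writer genes, 7 were lower and 2 higher, near those shares. The largest differences were those of PCIF1, the cap adenosine methyltransferase, with 6049.0, 8175.9 and 8165.1 in NTC and no KO peak (adjusted p = 1.68e-08, limma), and METTL5, an 18S rRNA methyltransferase, with 5750.3 to 7671.8 in NTC and 387.4 and 662.1 in METTL3-KO only (-6.44 ± 0.23, adjusted p = 3.95e-07, limma). Of 10 other proposed readers, 7 were lower and 2 higher, again near the background. ELAVL1, an RNA stability factor, went from 4200.2 to 7112.4 in NTC to 1 KO peak of 227.5 (adjusted p = 6.13e-05, limma), and FXR2, an FMR1 paralog, from 2557.3 to 4841.3 in NTC to no KO peak (adjusted p = 1.70e-07, limma).

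Of the 7 other ALKBH genes, 5 were lower and 1 higher, against 73.0% and 14.3% of all genes. ALKBH8, a tRNA modification enzyme, had no NTC peak and 1684.0 to 6092.1 in the 6 KO libraries (6.58 ± 0.26, SE, log2 scale, adjusted p = 6.69e-07, limma), while ALKBH4 had 1959.8 to 2858.6 in NTC and no KO peak. Of the genes on these lists, ALKBH6 and ALKBH7 alone had a peak in all 9 libraries, falling from 10429.1 to 13906.1 in NTC to 127.0 to 4160.3 in KO, and from 8340.4 to 13531.6 to 76.5 to 3176.7. Of 16 partners of the readers in deadenylation, decay and export, 9 were lower and 4 higher against the same shares, which says nothing particular to them. CPSF6, a 3′ end processing factor, kept 1 KO peak of 303.5 from 9428.5 to 10879.2 in NTC, and CNOT1, the CCR4-NOT scaffold, 1 of 93.0 from 4772.3 to 4967.4 (adjusted p = 5.62e-05 and 5.81e-06, limma).

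**Figure D5:**
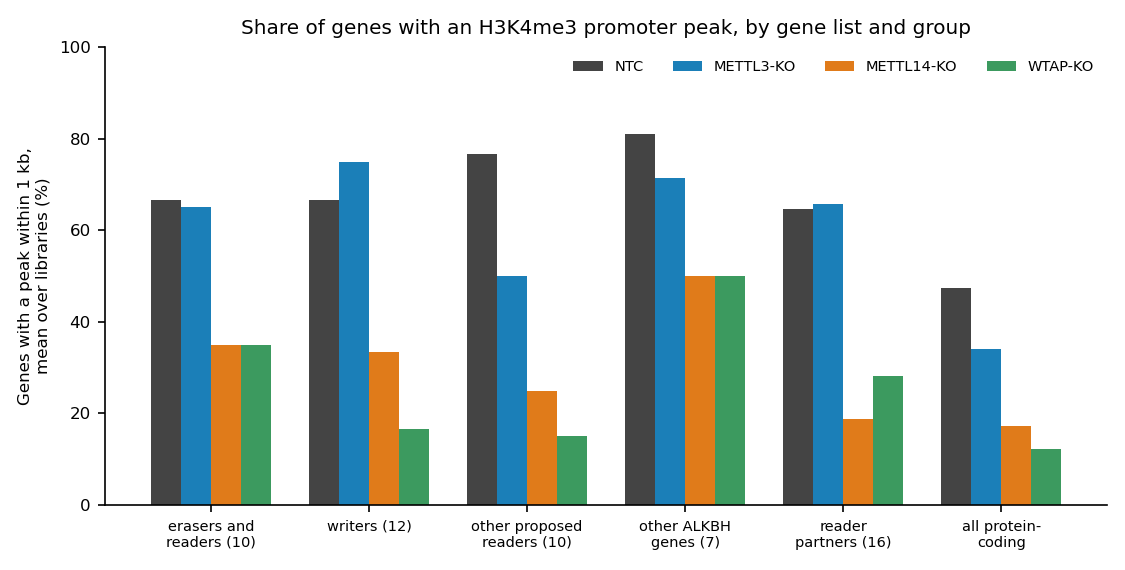
Mean share of genes with a peak within 1 kb, in percent, by gene list and group. Bars are means over the libraries of a group with no error drawn; METTL14-KO and WTAP-KO bars lie below the NTC bar in every list.

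The genes whose promoter pattern was most like a member's were found by the Euclidean distance of log2(signal + 30.105) over the 9 libraries, for the members marked in both NTC and KO libraries. YTHDC1 had the closest, GORASP2 at a distance of 0.33 and PREP at 0.35. The nearest to YTHDF3 were ACAD9 (2.13) and PRKAG1 (2.14), which also lacked a peak in NTC replicate 1, and those to ALKBH5 were TARS1 (1.24) and CHD3 (1.51), which like it had an NTC peak in replicate 3 only. IGF2BP2 was nearest to WBP11 (2.73) and KNL1 (3.32), and IGF2BP3 to FNDC3A (2.11) and CCDC24 (2.13).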

How the data were processed

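H3K4me3 CUT&RUN was done on HEL cells in 9 libraries, grouped by their labels. The authors aligned paired reads to hg19 and to the yeast spike-in genome with Bowtie, removed duplicates with Picard, scaled each library to the spike-in and called peaks per library. The deposited lists give a signal per peak. Depth is unknown, so no counting interval is given.

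Peak starts were assumed to count from 0 and are printed from 1. Transcript starts were those of GENCODE on GRCh37. Per gene and library the largest signal within 1 kb (and 5 kb) was taken, or 0 with no peak. Genes with a peak in at least 2 libraries were tested on log2(signal + 30.105), the lowest listed signal, with limma 3.58.1 in R 4.3.3. The test used trended variance, all 4 groups in 1 fit, Benjamini-Hochberg over all genes and a threshold of 0.05. A check on simulated data drew normal values for every library, so it does not cover groups with no peak. Motifs and GC were read from the reference. The 10 genes and the lists were chosen with earlier results of these data known. Other genes are named if among the 2 largest called differences of a list or marked in all 9 libraries. Alternatives covered windows, starts, constants, filters, scaling, the replicate block, left-out libraries and an exact permutation test. The canonical start alone was chosen after seeing the data. Of the marker lists, 2 genes are not reported here.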

Additional observations from a re-analysis of the deposited data

Results flagged for a closer look

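At 2 of the 10 genes METTL3-KO differed from METTL14-KO and WTAP-KO in a direct test of the difference (limma across 12037 genes). At YTHDF2 it was higher by 5.56 on the log2(signal + 30.105) scale, with peaks of 2969.6 and 2136.9 in METTL3-KO against 280.0 in 1 of 4 other KO libraries. At YTHDC1 it was higher by 3.90, with peaks of 608.9 and 285.1 against none. Higher values in METTL3-KO were found at 29.5% of all genes tested, and the METTL3-KO lists held 9205 and 9369 peaks against 3160 to 5286 in the other KO lists. Both genes still passed when the libraries were centred on genes marked in all 9 of them. Centring also shifts the value given to a library with no peak, as in most of the other KO libraries here. That pass is therefore not read as support. With peaks weaker than the NTC median left out, the YTHDC1 difference was gone, since both of its METTL3-KO peaks are weaker than that.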

How the results depend on the processing

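Of 1019 recomputed values of single genes, 916 kept direction and side of the threshold, 51 lost the call, 27 gained one and 25 turned. Of 485 recomputed counts, 427 stayed within the limits set and 58 moved. The cause was not tested except where the construction gives it. Depth is unknown, and 2 or 3 libraries a group limit the precision.

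Requiring a peak in at least 4 libraries leaves out genes marked in NTC alone. Genes lower then numbered 4481 (all KO groups), 3443 (METTL3-KO), 4400 (METTL14-KO) and 4499 (WTAP-KO), and 1089 were higher in METTL3-KO. Of the 10 genes, 2, 1, 2 and 2 were then lower, 1 was higher in METTL3-KO, and 1 was higher in METTL3-KO against the other KO groups. With peaks weaker than the NTC median left out, genes higher numbered 860, 861, 330 and 211 in the same order and 841 in METTL3-KO against the other KO groups. There 3 of the 10 were lower in METTL14-KO and 3 in WTAP-KO, 1 was higher in METTL3-KO against the others, and 4.67, 3, 1 and 1 of the 10 had a peak in NTC, METTL3-KO, METTL14-KO and WTAP-KO.

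Centring on genes marked in all 9 libraries gave 1980 genes higher (6832 lower, against 1009 and 8281) in METTL14-KO and 1989 (6974, against 820 and 8386) in WTAP-KO. METTL3-KO against the others then had 3776 genes and 3 of the 10 lower, and 3 of the 10 were higher in METTL14-KO and 3 in WTAP-KO. Centring shifts every value of a library, the value given to a gene with no peak included. A gene with no peak in the groups compared can therefore pass by the shift alone, so these counts are not read as changes of the mark. ALKBH5 turned to 1.43 (all KO), 0.13 (METTL14-KO) and 0.75 (WTAP-KO), YTHDF3 to 1.15 and IGF2BP3 to 0.50 in METTL3-KO, and IGF2BP2 to -0.58 in METTL3-KO against the others. Dividing by the step gave 2016 genes higher in that comparison, moved the median of all genes to -5.04 for all KO groups and turned YTHDF3 to 0.42 in METTL3-KO.

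Within 5 kb IGF2BP1 turned to -2.37 (all KO), -0.51 (METTL3-KO), -2.94 (METTL14-KO), -3.65 (WTAP-KO) and 2.78 (METTL3-KO against the others), and 8 of the 10 genes had an NTC peak. With coding transcripts alone, 1 gene was higher in METTL3-KO, 0 in METTL14-KO and 0 in WTAP-KO, IGF2BP3 turned to 2.39 in METTL3-KO and IGF2BP2 to -2.31 in WTAP-KO, and 2 of the 10 had a peak in METTL14-KO and 2 in WTAP-KO. With the canonical start alone, 0 and 0 were higher in METTL14-KO and WTAP-KO, IGF2BP3 gave 2.39 in METTL3-KO, IGF2BP2 gave -0.55 in METTL14-KO and -0.55 in WTAP-KO, and 1.5 and 2 of the 10 had a peak there.

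With 0.1 times the constant, 2 of the 10 were higher in METTL14-KO and 0 in WTAP-KO, and YTHDF3 turned to 0.70 in METTL3-KO. With 10 times, IGF2BP1 turned to 0.65 in METTL3-KO against the others. With only the groups compared, 2 were higher in METTL14-KO. The exact permutation test called 627 genes and 1 of the 10 higher over all KO groups.

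Same-numbered libraries did not deviate together (correlations of -0.058 to 0.095 over 12037 genes), so the numbers were not taken as pairs. Genes with no peak in both libraries of a group add no deviation, so this cannot settle whether libraries were prepared together. The replicate block gave 4 of the 10 lower and 3 higher over all KO groups (8600 and 1402 genes), against 5 and 3. NTC replicate 3 has no partner in that block. There ALKBH5 turned to 1.52 and YTHDF3 in METTL3-KO to 1.20, and IGF2BP1 (adjusted p = 0.11) and IGF2BP3 (adjusted p = 0.105, limma) lost their calls.

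Leaving out 1 library at a time, ALKBH5 ranged from -2.49 to 1.52 (all KO), YTHDF3 in METTL3-KO from -3.29 to 1.20, and IGF2BP1 in METTL3-KO against the others from -4.34 to 3.34. Of the 10 genes 1 to 3 were higher in METTL3-KO, 0 to 2 in METTL14-KO and 0 to 2 in WTAP-KO. METTL3-KO against the others had 63 to 144 genes lower, 2297 to 4304 higher, and 0 to 1 of the 10 lower. IGF2BP1 lost its all KO call without any 1 NTC, METTL14-KO or WTAP-KO library, and IGF2BP3 without NTC replicate 1 or 3.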
